A study of Mus musculus with 16 samples.

Results

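Nuclear-encoded mitochondrial proteins were followed by RNA-seq in mouse eosinophils from the duodenal lamina propria, in the morning and in the evening. Members were chosen by a rule on gene names, with earlier results of these data known. The rule took the subunits of respiratory complexes I to IV and of the ATP synthase, the proteins of the mitochondrial ribosome, the Timm and Tomm proteins of the import machinery, and the Slc25a carriers. The authors' 2 deposited tables listed 31 such genes among 1413 genes in either table, 28 of 1340 in CD11c-low cells and 3 of 172 in CD11c-high cells. The RefSeq annotation holds 251 protein-coding genes whose names follow the same pattern, and the levels of those in neither table were not analysed here.

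The 16 libraries form 4 groups of 4: eosinophils with high or low surface CD11c, each taken at zeitgeber time (ZT) 3, called AM, or ZT 15, called PM, with 1000 sorted cells behind each library of polyadenylated RNA. All groups are labelled as eosinophils of intestinal lamina propria, and no label gives a strain, a genotype, an age or a statement that the libraries of a group came from separate animals. The spread between libraries may therefore be technical. The tables hold the authors' comparison of ZT15 with ZT3 within each subset and no value of any single library, so each member has a mean normalised count over libraries, a shrunken log2 fold change with its posterior standard deviation, and an s-value. The s-value estimates how often the sign would be wrong over a gene and all genes ranked before it, and only genes under 0.05 are listed. A listed gene is called here higher or lower at ZT15 by its sign, and the tables do not say which of the genes they omit were tested.

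Mitochondria make most ATP by passing electrons from NADH and succinate through complexes I to IV to oxygen, while the protons pumped on the way drive the ATP synthase. Nearly all subunits are encoded in the nucleus, made on cytosolic ribosomes, and imported through the TOM and TIM translocases, whereas the mitochondrial genome supplies a small set of core subunits that mitochondrial ribosomes make in place. Eosinophils are known to use both glycolysis and mitochondrial respiration.

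In CD11c-low eosinophils the members did not move together. Of 28 listed members, 13 were higher and 15 lower at ZT15 (46.4% higher), beside 52.2% higher and 47.8% lower over all 1340 listed genes, so the split was near that of the whole table. Changes were small: the median size of the log2 fold change was 0.35 for members and 0.37 for all listed genes, and the largest member change was 0.60. The genes that rose with the smallest s-values included Atp5b, Mrpl45 and Sdhb, and those that fell with the smallest s-values were Ndufb11 and Ndufb10, per the authors' deposited table. No member was among the strongest changes of the table, and the smallest s-value of any member, that of Atp5b, ranked 83 of 1340.

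**Figure D1:**
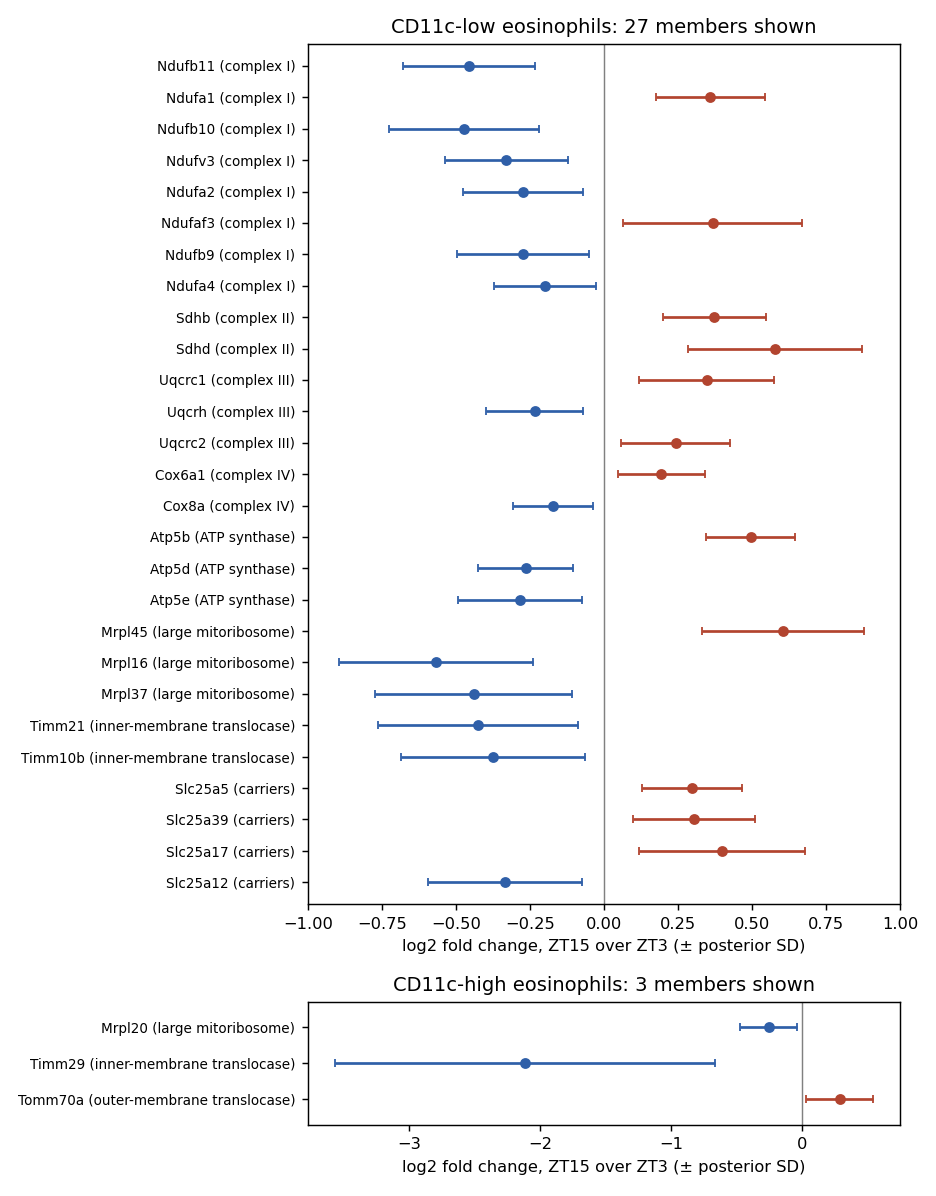
Log2 fold change of each listed member at ZT15 over ZT3, with bars of 1 posterior standard deviation, in CD11c-low (27 of 28 genes, top) and CD11c-high eosinophils (3 genes, bottom, wider axis). Genes are ordered by complex or function; the 12 drawn members higher at ZT15 in CD11c-low cells are red and the 15 lower ones blue, and every group with 3 or more members has both colours.

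The better supported members lay mostly on the higher side. Of the 8 members with an s-value under 0.01 (28.6% of members, beside 38.7% of all listed genes), 6 rose and 2 fell, whereas 52.7% of all 518 listed genes at that threshold rose. The remaining 20 members were 7 higher and 13 lower (35% higher), where 51.9% of all 822 listed genes with an s-value of 0.01 or more rose. The s-values also give each gene a false sign rate of its own, and 12 members had one under 0.05 (42.9%, beside 52.7% of all listed genes), 7 higher and 5 lower, where 52.5% of all such genes rose. Of the 5 members whose change exceeded 2 posterior standard deviations (17.9%, beside 29.0% of all listed genes), 4 rose, among them Atp5b, Mrpl45 and Sdhb, and Ndufb11 fell, where 54.2% of all such genes rose. The division at 2 standard deviations was chosen after the values were seen. These counts are small, so they describe these genes and do not set them apart from the rest.

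Complex I, the NADH dehydrogenase at the entry of the chain, had the most listed genes, 9 of 49 annotated names. Over all members 28 of 251 names were listed in CD11c-low cells. Of the 9, 3 were higher and 6 lower, where 47.8% of all 1340 listed genes were lower. Among those that rose, Ndufa1 (ENSMUSG00000016427.8), a small accessory subunit of the membrane arm, rose by 0.36 ± 0.18 (s-value 0.00659), and Ndufaf3, an assembly factor that is no subunit of the finished complex, by 0.37 ± 0.30 (s-value 0.0409) in the authors' deposited table. The 6 genes that fell were accessory subunits or, for Ndufa4, a subunit that has since been placed in complex IV. Ndufb11 (ENSMUSG00000031059.10) was at -0.46 ± 0.22 (s-value 0.00470) and Ndufb10 (ENSMUSG00000040048.15) at -0.47 ± 0.25 (s-value 0.00745) in the authors' deposited table, and with Ndufb9 (-0.27 ± 0.22) all 3 listed subunits of the Ndufb series, which lie in the membrane arm, fell. Ndufv3 (-0.33 ± 0.21) and Ndufa2 (-0.27 ± 0.20), accessory subunits of the NADH-oxidising arm, and Ndufa4 (-0.20 ± 0.17) also fell, per the authors' deposited table. Ndufa4 stood just inside the listing threshold, with an s-value of 0.0499 and rank 1338 of 1340. Among the listed Nduf genes without the assembly factor, 2 rose and 6 fell, with Ndufa4 counted among the 6 by its name.

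Complex II, succinate dehydrogenase, is the one complex of the chain with no mitochondrially encoded subunit, and both of its listed genes rose. Sdhb (ENSMUSG00000009863.15), the iron-sulfur subunit, rose by 0.37 ± 0.17 (fold 1.29, s-value 0.00362, mean normalised count 572) in the authors' deposited table. Sdhd (ENSMUSG00000000171.6), a membrane anchor subunit, rose by 0.58 ± 0.29 (fold 1.49, s-value 0.00550) in the authors' deposited table, where its mean normalised count was 123. Both remained listed at an s-value under 0.01.

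Complex III, which passes electrons from ubiquinol to cytochrome c, had 2 genes higher and 1 lower. The large core proteins Uqcrc1 (0.35 ± 0.23, s-value 0.0207) and Uqcrc2 (0.24 ± 0.18, s-value 0.0354) rose and the small hinge protein gene Uqcrh (-0.23 ± 0.16, s-value 0.0269) fell in the authors' deposited table. Of complex IV, cytochrome c oxidase, Cox6a1 rose by 0.19 ± 0.15 and Cox8a was at -0.17 ± 0.13, changes of nearly equal size in opposite directions in the authors' deposited table (s-values 0.0360 and 0.0400). Ndufa4, counted with complex I by its name, fell as given above. None of the 5 genes counted here for complexes III and IV had an s-value under 0.01.

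Of the ATP synthase 1 listed gene rose and 2 fell. Atp5b (ENSMUSG00000025393.13), the beta subunit that carries the catalytic sites, rose by 0.50 ± 0.15, a fold of 1.41, with an s-value of 5.96e-05 and the highest mean normalised count of any member (1517), in the authors' deposited table. The small subunits of the central stalk fell, Atp5d (delta) at -0.27 ± 0.16 and Atp5e (epsilon) at -0.28 ± 0.21, in the authors' deposited table (s-values 0.0167 and 0.0299). These subunits occur together in each assembled enzyme, so the transcripts of one complex moved in opposite directions.

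Within these complexes the longer subunits were mostly higher and the short ones mostly lower. Among the 18 listed chain and ATP synthase subunits, those with a coding length of 600 nucleotides or more were 5 higher (Atp5b, Uqcrc1, Uqcrc2 and Sdhb among them) and 1 lower (Ndufv3), and the shorter ones were 3 higher (Sdhd, Cox6a1 and Ndufa1) and 9 lower. The median coding length was 1102.5 nucleotides for the 8 that rose and 375 for the 10 that fell, using the longest annotated coding sequence of each gene in GENCODE M21. The median protein-coding transcript, UTRs included, is shorter than the longest coding sequence for Ndufv3 (645 against 1404 nucleotides), which fell. The same holds for other longer subunits, among them Uqcrc1 (533 against 1440) and Uqcrc2 (1179 against 1359), which rose. The length of such genes depends on the isoform taken. Across the 18 genes Spearman's correlation of coding length with the log2 fold change was 0.26, given as a description, since the genes share libraries and the 600-nucleotide division was chosen after the values were seen. Among the ribosome, import and carrier members, the 8 with 600 nucleotides or more were 4 higher and 4 lower, and the 1 shorter one fell. The same correlation was 0.20 over all 28 members and 0.0017 over the 1269 listed genes with a coding length. Of the 217 short genes 41.5% rose, and with ribosomal protein and immunoglobulin genes left out 50.6% of 178 did, beside 54.6% of 1043 longer ones. Short cytosolic ribosomal protein genes, of which all 39 listed fell, were in the same libraries. Of the 9 longer ones listed, 3 rose and 6 fell. The part of ribosomal protein genes in the fall of short subunits was not tested.

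**Figure D2:**
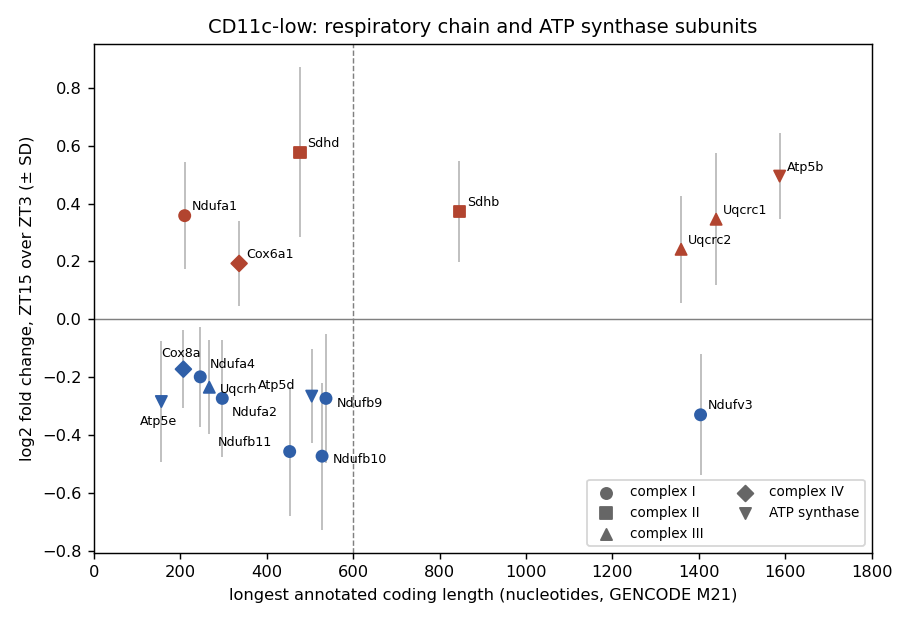
Log2 fold change at ZT15 over ZT3 in CD11c-low eosinophils, with bars of 1 posterior standard deviation, against the longest annotated coding length in nucleotides for 17 of the 18 listed respiratory chain and ATP synthase subunits; marker shape gives the complex, red is higher and blue lower. To the right of the dashed line at 600 nucleotides 4 of 5 genes lie above 0, and to its left 9 of 12 lie below.

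Promoters of nuclear respiratory genes are known for sites of the factors NRF1 and GABP, an ETS family factor, which drive many of these genes. The 250 bases before the annotated start were searched on both strands for GCGCATGC, the core of the NRF1 site (reverse complement GCATGCGC), and for CCGGAAG, an ETS site (reverse complement CTTCCGG), in RefSeq promoters of build GRCm38.p6. A gene counted as holding the letters if any of its annotated starts did. Of 31 members, 26 had an entry. Ndufa2, Ndufb9, Timm21 and Uqcrc2 were among those without one. Of the 26, 23 are listed in CD11c-low cells. The NRF1 letters stood in 2 of the 23, Cox6a1 and Sdhb, both of which rose, beside 2.56% of 27025 genes and 4.35% of 1011 matched genes of the CD11c-low table. The ETS letters stood in 5 of the 23 (21.7%), 3 higher and 2 lower, beside 7.83% of all genes and 18.1% of the matched CD11c-low table, and also in Timm29 and Tomm70a of the CD11c-high table. Shown are the 2 listed subunits of complex II, Sdhb and Sdhd, which both rose, and Cox6a1 and Uqcrh, which carry the ETS letters and moved in opposite directions. Capitals mark the NRF1 letters in Sdhb and the ETS letters in the other 3. All run 5′ to 3′ towards the gene, at chr4:140961021-140961270 (plus strand) for Sdhb, chr9:50603850-50604099 (minus) for Sdhd, chr5:115348959-115349208 (minus) for Cox6a1 and chr4:116075071-116075320 (minus) for Uqcrh.
Sdhb: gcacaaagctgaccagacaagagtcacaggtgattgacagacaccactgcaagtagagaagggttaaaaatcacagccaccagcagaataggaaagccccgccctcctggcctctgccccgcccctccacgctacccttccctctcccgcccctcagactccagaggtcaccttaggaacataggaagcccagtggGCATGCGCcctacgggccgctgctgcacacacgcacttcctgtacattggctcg
Sdhd: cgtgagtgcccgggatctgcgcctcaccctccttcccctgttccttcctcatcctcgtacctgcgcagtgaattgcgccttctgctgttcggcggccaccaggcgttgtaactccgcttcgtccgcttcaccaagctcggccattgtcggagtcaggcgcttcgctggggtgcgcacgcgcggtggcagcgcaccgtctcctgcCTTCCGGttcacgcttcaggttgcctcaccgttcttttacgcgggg
Cox6a1: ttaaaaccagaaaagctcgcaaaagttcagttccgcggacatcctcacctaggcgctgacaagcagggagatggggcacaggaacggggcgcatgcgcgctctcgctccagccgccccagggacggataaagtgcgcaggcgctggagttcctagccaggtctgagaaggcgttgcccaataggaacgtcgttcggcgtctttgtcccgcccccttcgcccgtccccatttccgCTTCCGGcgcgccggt
Uqcrh: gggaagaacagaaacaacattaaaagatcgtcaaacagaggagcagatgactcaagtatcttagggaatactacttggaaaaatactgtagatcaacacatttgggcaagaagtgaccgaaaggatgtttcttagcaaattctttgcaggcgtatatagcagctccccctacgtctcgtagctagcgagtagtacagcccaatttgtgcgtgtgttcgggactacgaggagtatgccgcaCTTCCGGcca
In Sdhb the NRF1 letters begin at base -54 from the start, and the ETS letters begin at -46 in Sdhd, -16 in Cox6a1 and -10 in Uqcrh. Cox6a1 also holds 2 overlapping copies of the NRF1 letters, one on each strand, at -162 and -160, printed in lower case here. A match of letters is no evidence of binding, and no binding was measured.

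Mitochondrial ribosomes translate the mitochondrially encoded subunits. Of 49 annotated names of the large subunit 3 were listed in CD11c-low cells, and of 29 names of the small subunit none. Over all members 28 of 251 names were listed there, and these small counts do not set the ribosome apart. Mrpl45 (ENSMUSG00000018882.13), a large-subunit protein near the exit of the nascent chain, rose by 0.60 ± 0.27 (fold 1.52, s-value 0.00241, mean normalised count 229), in the authors' deposited table. Mrpl16 was at -0.57 ± 0.33 (s-value 0.0105) and Mrpl37 was at -0.44 ± 0.33 (s-value 0.0296) in the authors' deposited table. The 2 that fell had mean normalised counts of 60.7 and 47.2, against 316 for the median member.

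Both listed import genes fell in CD11c-low cells. Timm21, a subunit of the TIM23 complex that couples presequence import to the chain, was at -0.42 ± 0.34, and Timm10b, a small Tim protein of the TIM22 complex that inserts carriers, at -0.38 ± 0.31, in the authors' deposited table. Their mean normalised counts, 52.9 and 56.0, were among the 4 lowest of the members, and their s-values were 0.0350 and 0.0409. No Tomm gene was listed in CD11c-low cells.

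Of the carriers 3 rose and 1 fell. Slc25a5, the ADP/ATP translocase that exports ATP from the matrix, rose by 0.30 ± 0.17 in the authors' deposited table (s-value 0.0122, mean normalised count 1208). Slc25a39, which imports glutathione, rose by 0.30 ± 0.21, and Slc25a12, the calcium-regulated aspartate-glutamate carrier, was at -0.33 ± 0.26 in the authors' deposited table (s-values 0.0231 and 0.0351). Slc25a17 rose by 0.40 ± 0.28 in the authors' deposited table, but its product is a carrier of the peroxisomal membrane, so this member meets the name rule and not the label. No carrier had an s-value under 0.01.

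**Figure D3:**
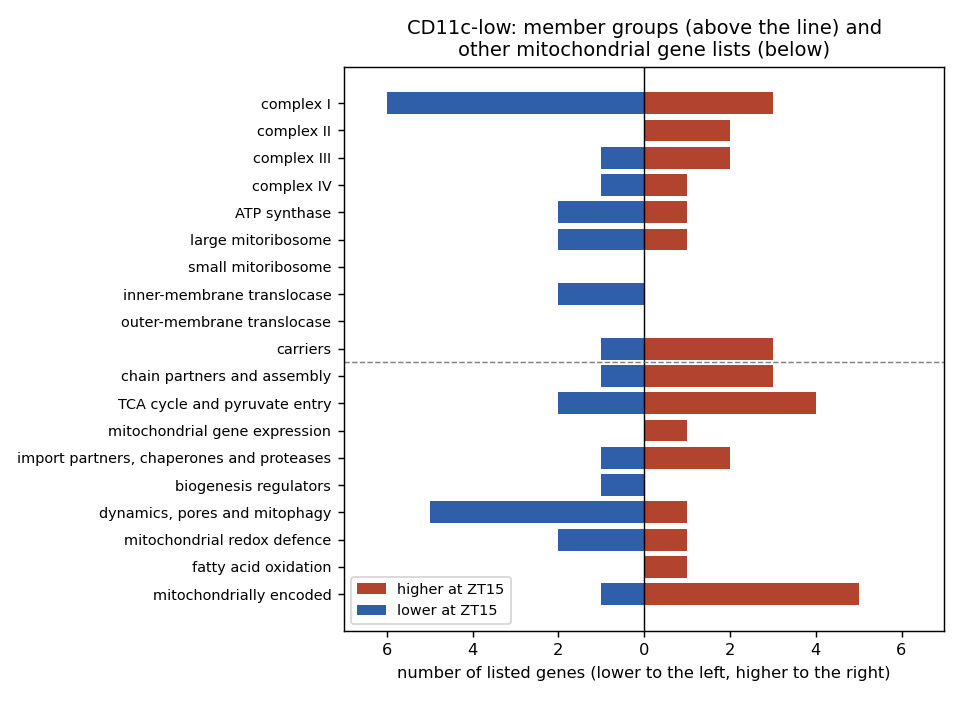
Number of listed genes higher (red, right) and lower (blue, left) at ZT15 in CD11c-low eosinophils, for the 10 member groups above the dashed line and for 9 other lists of mitochondrial genes below it. Complex I, with Ndufa4 counted there by its name, has 6 lower and 3 higher genes. Complex II has 2 higher and none lower, and the list of dynamics, pores and mitophagy has 5 lower and 1 higher.

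Other nuclear genes of mitochondria, from 8 lists of 217 names in all, were split as evenly as the members, with 13 higher and 12 lower of 25 listed in CD11c-low cells. The tricarboxylic acid cycle and pyruvate entry had 4 higher and 2 lower of 6 listed. Idh3g, a regulatory subunit of isocitrate dehydrogenase, rose by 0.53 ± 0.28 and Pdhb, of pyruvate dehydrogenase, by 0.45 ± 0.24, while Idh3a, the catalytic partner of Idh3g, was at -0.42 ± 0.32 in the authors' deposited table. Partners of the chain rose in 3 of 4 cases, among them Etfa (0.44 ± 0.22), which passes electrons from fatty acid oxidation to ubiquinone, and Cycs (0.34 ± 0.27), cytochrome c, in the authors' deposited table. Eci2, an enzyme of the oxidation of unsaturated fatty acids, rose by 0.67 ± 0.26 (s-value 0.000864) in the authors' deposited table. The import and protein processing list had 2 higher, Mtx1 (0.47 ± 0.32) and Pmpcb (0.35 ± 0.24), and 1 lower, Yme1l1 (-0.31 ± 0.23), in the authors' deposited table.

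The list of dynamics, pores and mitophagy had 5 lower and 1 higher of 6 listed genes. Vdac1, the voltage-gated pore of the outer membrane, was at -0.77 ± 0.27 (s-value 0.000328) in the authors' deposited table. Smdt1 (-0.37 ± 0.17) and Mcu (-0.45 ± 0.26), which encode a scaffold and the pore of the channel that takes calcium into the matrix, fell in the authors' deposited table. Micu2, a gatekeeper of that channel, was at -0.39 ± 0.24 and Bnip3l, a mitophagy receptor, at -0.27 ± 0.18, in the authors' deposited table, both named after their values were seen. Ucp2, an inner-membrane carrier whose name lies outside the member rule, rose by 0.22 ± 0.13 in the authors' deposited table. Esrra, a nuclear receptor that drives respiratory genes, was the one listed regulator of 15 and was at -0.47 ± 0.30 in the authors' deposited table. Of the redox list, Gsr (-0.61 ± 0.20) and Sod2 (-0.24 ± 0.17) fell and Txnrd2 rose by 0.47 ± 0.33 in the authors' deposited table. Trmt10c, of mitochondrial tRNA processing, was the one listed gene of the gene expression list and rose by 0.37 ± 0.32 in the authors' deposited table.

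Mitochondrially encoded partners of these subunits can be set beside them. In complex I, mt-Nd1, mt-Nd2 and mt-Nd4 were at 0.34 ± 0.12, 0.66 ± 0.18 and 0.65 ± 0.13, per the authors' deposited table. There 6 of the 8 listed Nduf subunits fell, a count that includes Ndufa4, since placed in complex IV. Of all 1340 listed genes 47.8% were lower. Ndufb11, Ndufb10 and Ndufv3 fell by 2.04, 1.86 and 1.58 posterior standard deviations, and Ndufa2, Ndufb9 and Ndufa4 by only 1.35, 1.23 and 1.16. The smallest s-value of the 8 was that of a subunit that rose. A difference between nuclear and mitochondrially encoded subunits was not tested. In complexes III and IV mt-Cytb (1.05 ± 0.18) and mt-Co1 (0.66 ± 0.13) rose where listed nuclear subunits went both ways, per the authors' deposited table. The sixth listed transcript, the ribosomal RNA mt-Rnr2, which belongs to no complex, was at -0.27 ± 0.15 (s-value 0.0107) in the authors' deposited table.

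**Figure D4:**
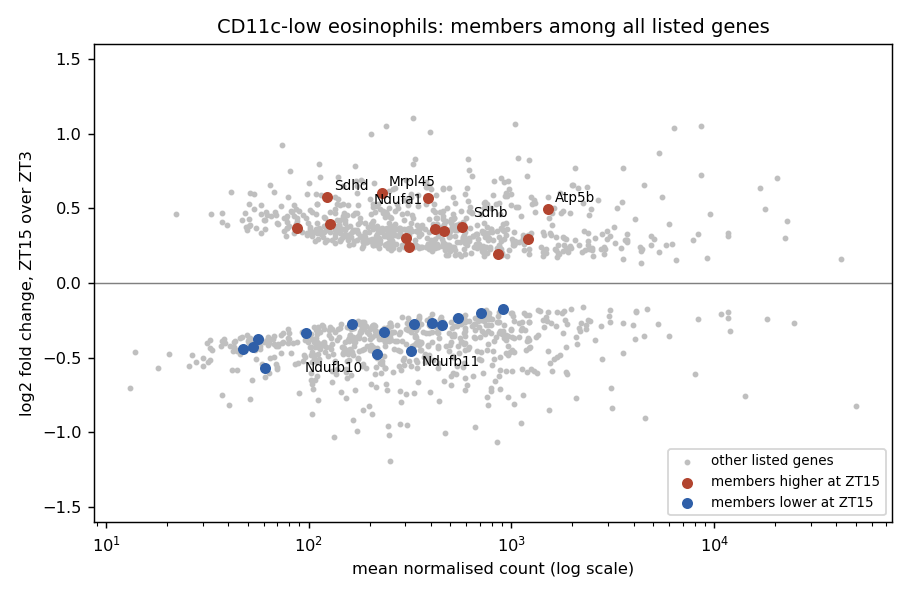
Log2 fold change at ZT15 over ZT3 against the mean normalised count (log axis) in CD11c-low eosinophils, for the members (red higher, blue lower) and all other listed genes (grey); 7 of the 8 members with an s-value under 0.01 are named, and 19 genes beyond 1.5 in log2 lie outside the axis. Members spread over the middle of the range of counts, and none lies among the largest changes.

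Members had mean normalised counts from 47.2 to 1517 in CD11c-low cells (median 316), near the median of all listed genes, 332. The plot of counts against fold changes has an empty band around 0 that widens at low counts, because only genes under the s-value threshold are listed. A low-count member could therefore be listed only with a larger change, and fold changes of members with unlike counts are not ranked as effects.

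In CD11c-high eosinophils 3 members were listed, 1 higher and 2 lower, beside 54.1% higher and 45.9% lower over all 172 listed genes. No subunit of the respiratory chain or the ATP synthase was among them. Tomm70a, an outer-membrane receptor for carrier precursors, rose by 0.29 ± 0.26 (s-value 0.0419, mean normalised count 106), and the large mitoribosome gene Mrpl20 was at -0.25 ± 0.22 (s-value 0.0444) in the authors' deposited table. Timm29, a subunit of the TIM22 complex, was at -2.12 ± 1.45 (s-value 0.0134) in the authors' deposited table. That standard deviation is the largest of any member and the mean normalised count, 27.0, the lowest, so the size of the decrease is poorly known. None of the 3 had an s-value under 0.01, beside 22.1% of all listed genes, and none changed by more than 2 posterior standard deviations, beside 9.88%. Timm29 alone had a false sign rate of its own under 0.05, beside 45.3% of all listed genes.

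No member was listed in both subsets. Over all genes, 99 were in both, of 172 in the CD11c-high table (57.6%) and of 1340 in the CD11c-low table. With 28 members listed in CD11c-low cells and 3 in CD11c-high cells, this absence does not set the members apart. Because no member has a value in both tables, the difference between subsets was not tested for any member, and a listing in one subset does not show that the other lacked the change. Of the other mitochondrial lists, Gpx4 (-0.24 ± 0.20), which removes lipid peroxides, was the one listed gene in CD11c-high cells, and mt-Rnr2 (-0.20 ± 0.14) was the one listed mitochondrially encoded transcript, per the authors' deposited table.

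Several facts of the libraries bear on all members. Of 13 eosinophil marker names 4 were listed in CD11c-low cells, with mean normalised counts of 1633 to 4887 in the authors' deposited table. Siglecf (0.23 ± 0.13), Alox15 (0.26 ± 0.14) and Csf2rb (0.33 ± 0.16) rose and Adgre1 (-0.29 ± 0.14) fell in the authors' deposited table. The other names were not analysed here, and none of the 13 was listed in CD11c-high cells. Of 63 marker names of other cell types 7 were listed in CD11c-low cells, 5 higher and 2 lower, with 14 immunoglobulin segments (8 higher, 6 lower). In CD11c-high cells 1 of the 63, Hdc, was listed and rose (0.24 ± 0.19), with 9 immunoglobulin segments (7 higher, 2 lower). Hdc had a mean normalised count of 817 there and 934 in CD11c-low cells, and which cells carried it was not tested. The part of these genes in the members' changes was not tested. In such bulk samples fewer cells of a type and less RNA per cell cannot be told apart. Exons of 10 of the 31 members overlap another gene in GENCODE M21, on the opposite strand for 9 of them, among them Ndufb11 with Rbm10, Atp5d with Cbarp, Uqcrc2 with Pdzd9 and Timm29 with Yipf2, and on the same strand for Ndufb9 and Timm10b. The sources used here do not say whether the counting used strand, so reads of such pairs cannot be told apart. Processed pseudogene copies could likewise take or give reads of small subunits and of Slc25a5, so those values are uncertain in that respect.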

How the data were processed

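RNA of 16 libraries, 4 for each CD11c subset and time, was sequenced after poly(A)-based amplification and Nextera XT library preparation, per the labels' protocols. The submitters' processing notes name STAR 2.7.10b, DESeq2 1.38.3 and the build GRCm39 and assign them no step. The sources used here name no read counter, annotation or shrinkage method. The deposited tables hold, per the file headers, the mean normalised count (a signal averaged over libraries after division by size factors), a log2 fold change, its standard deviation, and an s-value for each gene. The authors' log2 fold changes were taken as shrunken, because s-values come with shrunken estimates, and an s-value that the authors deposited is an error rate of signs, not a p-value. The tables' names give the direction as PM over AM. Single libraries have no depth in these tables, and no counting interval was computed.

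Members, gene lists and groups were chosen with earlier results of these data known. The rule for named genes took up to 6 members per group and direction in each table, and so all 28 and 3; 1 of them is not reported here by name and is left out of the figures that name genes, but stands in every count. Other lists are named by up to 3 genes per direction with the smallest s-value. Micu2, Bnip3l, mt-Nd1 and mt-Nd2, outside that rule, were added after their values were seen. Each gene's own false sign rate was derived from differences of the ranked s-values, taken as running means of such rates. Simulated s-values built as running means checked only the arithmetic of this step. That check does not show that the authors' s-values were built so. Counts, medians and Spearman correlations were computed in Python 3.11.15 (SciPy 1.17.1, NumPy 2.4.6, pandas 2.3.3), figures were drawn with matplotlib 3.10.9, and no test of a list was made. The planned test between subsets was not run, because no member is in both tables. Coding length was the longest protein-coding sequence per gene identifier in GENCODE M21 (GRCm38), without the stop codon, found for 1269 of 1340 genes, all 28 members included. Promoters came from RefSeq (GRCm38.p6), matched by symbol. Coordinates on GRCm39 are not given, because no annotation of that build was used. Alternatives were an s-value under 0.01, a gene's own false sign rate under 0.05, a mean normalised count of at least 50, and other member and background definitions.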

Additional observations from a re-analysis of the deposited data

How the results depend on the processing

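Of 33 values recomputed under alternatives, 21 stayed close to the reported one, 10 moved and 2 changed sign. A count was called close within 1.5 times, and a median if it shifted by less than the members' median posterior standard deviation. A share of members was called close from 27.5% to 66.1%, an exact 95% binomial interval, and the share of all listed genes within its own such interval. Such intervals treat genes as independent, although they share libraries, so close here is a wide label. In CD11c-low cells, an s-value under 0.01 left 6 higher and 2 lower members (75.0% higher), and a gene's own false sign rate under 0.05 left 7 higher and 5 lower. The members' median log2 fold change, -0.19, became 0.43 and 0.33 under these rules; with members on both sides of 0, its sign follows from which side holds more. In CD11c-high cells, an s-value under 0.01 left 0 higher and 0 lower members, a false sign rate under 0.05 left 0 higher and 1 lower, and a mean normalised count of at least 50 left 1 lower. Leaving out carriers, assembly factors, or Ndufa4 and Slc25a17 (added after seeing the data) kept every CD11c-low count within 1.5 times. The share of all listed genes that rose was 53.9% without ribosomal protein genes. Leaving out single libraries, other normalisations and other tests were not run, because the tables hold no value of a single library. No paired analysis was possible because no column belongs to a library, so the replicate numbers could not be used. Genes of low count were listed only with larger changes, and no limit on an unlisted gene can be given.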
